A study of Capra hircus with 4 samples.

Results

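The genes described here cut, protect or cross-link the extracellular matrix. They are the matrix metalloproteinases (MMP), the membrane proteases of the ADAM family, the secreted ADAMTS proteases with the ADAMTS-like proteins, the tissue inhibitors of metalloproteinases (TIMP) and the lysyl oxidases (LOX and LOXL1 to LOXL4). Members were matched by gene symbol, which took 70 of the 20326 genes in the deposited tables. They comprise 20 MMP, 17 ADAM, 24 ADAMTS, 4 TIMP and 5 lysyl oxidase genes. The families were chosen with earlier results of these data known, so shares set beside all genes are a description and no test.

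The cells were stem cells of the secondary hair follicle, grown in culture after isolation from the back skin of cashmere goats (Capra hircus). Secondary follicles grow the fine cashmere undercoat. Each of 2 phases of hair growth has 2 libraries, 1 female and 1 male, namely mid anagen sampled in October and early anagen sampled in April. Phase and month of sampling go together in all libraries, so their effects cannot be told apart. No treatment, genetic change, strain, age or passage number is given in the labels, which call the libraries biological replicates. Nothing in them says from how many animals a culture came, so p-values measure the spread between these libraries.

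Hair follicles rebuild the matrix around them in every cycle as the growing bulb pushes down into the dermis. MMPs are made as inactive proenzymes that degrade collagens, basement membrane and other matrix proteins once activated. TIMPs block the active site of MMPs and of some ADAM and ADAMTS enzymes. ADAM proteases mostly shed the outer parts of membrane proteins, such as Notch receptors, cadherins and EGF receptor ligands. Lysyl oxidases are copper enzymes that oxidise lysines in collagen and elastin so that the fibres become cross-linked.

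Values are deposited abundances per gene on a scale like TPM, that is, normalised for transcript length, so levels can be set beside each other between genes. Library totals ranged from 844960 to 1186966 and between 12040 and 12458 genes reached a value of 1. The number of reads behind the values is unknown. The test took every gene that reached 1 in 2 or more libraries, and fold changes are on the log2(value + 1) scale, which makes the change of a low gene look smaller. Basal epithelial markers were abundant, with KRT14 at 9603 and 8956 in the mid female and male and at 20587 and 23511 in early female and male libraries. The stem cell marker LHX2 was at 31.7 and 32.1 at mid anagen and at 9.54 and 6.94 at early anagen, while CD34 was at no more than 0.136 in any library. KRT15 was not found by its symbol. In RNA from whole cultures, fewer cells of a type and less RNA per cell cannot be told apart.

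Most of the matrix genes that were measurable had higher values at mid anagen, but none of them passed the test over all genes. Of the 70 members, 5 were at 0 in every library, 29 others did not reach the filter and 36 were tested. In 25 of the 36 both mid libraries lay above both early libraries, which is 69.4% of them, beside 31.5% of all 12486 tested genes. In 1 of them, MMP20, both mid libraries lay below both early ones (2.78%, beside 30.9% of all tested genes), and in 10 the phases overlapped. With limma and Benjamini-Hochberg adjustment 0 of 36 members passed at 0.05, beside 0.304% of all tested genes (0.224% higher and 0.0801% lower). An unadjusted p under 0.05 was found for 19 members (52.8%), beside 27.9% of all tested genes. Of the members 18 were higher and 1 lower at mid anagen, beside 13.2% and 14.7% of all tested genes.

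The median log2 fold change of the 36 members was 0.76, beside 0.01 for all tested genes. It was 0.47 with a pseudocount of 5 and 0.38 over all 65 members above 0 with no filter. The filter fixed part of this, since ADAM12, LOX, LOXL3 and MMP7 reached 1 only in mid libraries and so could only be higher there. Without these 4, both mid libraries were above both early ones in 21 of 32 members, beside 30.3% of the genes that did not pass in that way. After rescaling each library to a common total, the median of all tested genes shifted by 0.31 to 0.32 and that of the members was 1.06. Both mid libraries then lay above both early ones in 28 of 36 members (77.8%), beside 57.2% of all tested genes, and below them in 1, beside 12.7%. With this scaling 11 members passed (30.6%), beside 5.19% of all tested genes, 565 of them higher and 83 lower. The members that passed were all higher at mid anagen (4.53% of all tested genes were). These members were MMP2, MMP9, MMP11, MMP28, ADAM9, ADAM12, ADAMTSL4, TIMP2, LOX, LOXL1 and LOXL2. The filter fixed the direction of ADAM12 and LOX among them. Leaving out the mid female library gave 14 called members, beside 5.87% of all tested genes. Of these 12 were higher and 2 lower, beside 2.65% and 3.22%. Leaving out the mid male library gave 7, beside 2.96% of all tested genes, and all 7 were higher (1.53% of all tested genes were higher and 1.43% lower). Without 1 or the other of the early libraries, female and male, 0 passed, with 20 and 12 of 36 members at an unadjusted p under 0.05, beside 23.2% and 11.6% of all tested genes.

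**Figure D1:**
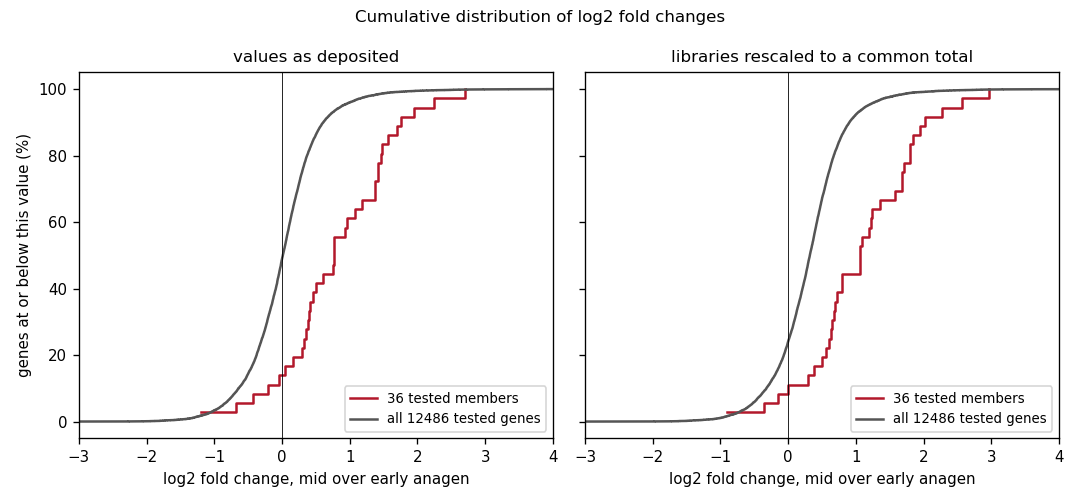
Cumulative share of genes (vertical axis, %) by log2 fold change of mid over early anagen (horizontal axis) for the 36 tested members and for all 12486 tested genes, as deposited on the left and with libraries rescaled to a common total on the right. As deposited, the members' curve lies to the right of the curve of all genes over most of its course, with medians of 0.76 and 0.01.

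Among the MMPs, the gelatinases had the largest differences. MMP2 (GeneID 102184364), gelatinase A, which degrades denatured collagen and basement membrane collagen, was at 24.4 and 17.1 in the mid female and male and at 4.25 and 1.05 in early female and male libraries. The phases did not overlap, and the early male library was the lowest. MMP9 (GeneID 102168469), gelatinase B, was at 106 and 203 at mid anagen and at 39.7 and 23.2 at early anagen in the female and male libraries. It was lowest in the early male and highest in the mid male library. The log2 fold change was 2.71 for MMP2 (SE 0.46, limma adjusted p = 0.0724) and 2.24 for MMP9 (SE 0.39, limma adjusted p = 0.0724). The summed level of the gelatinases was 131 and 220.5 at mid anagen and 43.9 and 24.2 at early anagen.

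MMP28 (GeneID 102184088) and MMP11 (GeneID 102181066) followed the same order at lower levels. MMP28, epilysin, an MMP known from skin keratinocytes, was at 12.5 and 11.4 at mid anagen and at 4.43 and 2.51 at early anagen (log2 fold change 1.56, SE 0.24, limma adjusted p = 0.07). MMP11, stromelysin 3, which furin activates inside the cell, was at 6.80 and 8.15 at mid anagen and at 2.85 and 1.62 at early anagen (log2 fold change 1.41, SE 0.24, limma adjusted p = 0.0724). In both genes the mid libraries stood close together and above the early ones. MMP15, a membrane-type MMP, was at 13.6 and 20.4 at mid anagen and at 10.3 and 6.58 at early anagen.

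MMP14 (GeneID 100861171), the membrane-type enzyme that together with TIMP2 activates the MMP2 proenzyme, was the most abundant MMP and nearly level. It was at 262 and 229.9 in the mid female and male and at 237 and 269 in early female and male libraries. The log2 fold change was -0.04 (SE 0.18), and 0.30 after rescaling to a common total, so its sign depends on the scaling. Leaving out 1 library gave values from -0.14 to 0.05. MMP14 made up 53.8% and 40.8% of the summed MMP level at mid anagen and 66.7% and 74.4% at early anagen, with MMP9 at 21.8% and 36.1% and at 11.2% and 6.40%.

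The only tested member with both mid libraries below both early ones was MMP20 (GeneID 102171626), enamelysin, best known as a protease of forming tooth enamel. It was at 6.63 and 3.79 in the mid female and male and at 15.99 and 10.4 in early female and male libraries. The log2 fold change was -1.20 (SE 0.30, limma adjusted p = 0.0923) and the difference was of about the same size in both sexes, -1.25 for males and -1.16 for females.

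The collagenases, which cut intact fibrillar collagen, did not share a pattern. MMP13 (GeneID 102170069) was at 8.53 and 48.0 in the mid female and male and at 6.29 and 7.23 in early female and male libraries, so that the mid male library stood far above the other 3. MMP1 (GeneID 102170620) was at 31.2 and 8.34 at mid anagen and at 23.9 and 29.9 at early anagen, so that the mid male library stood below the other 3. Its log2 fold change was -0.68 (SE 0.56) and became 0.21 without the mid male library. MMP3, stromelysin 1, was at 5.08 and 0.316 at mid anagen and at 1.43 and 3.35 at early anagen, again lowest in the mid male library. MMP8, the neutrophil collagenase, was at 0 in all libraries.

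MMP1, MMP3, MMP13 and MMP20 are neighbours in the genome. In the RefSeq annotation of the goat ARS1.2 assembly, MMP7, MMP20, MMP27, MMP8, MMP1, MMP3, MMP12 and MMP13 follow one another in this order, with at most 1 other protein-coding gene between each and the next. Of these 8 genes, MMP7 and MMP13 were higher in both mid libraries than in both early ones, and MMP20 and MMP12 were lower. Among all genes above 0 in any library, 30% were higher and 25.9% lower in this way. MMP7, matrilysin, was at 1.26 and 4.36 at mid anagen and at 0.791 and 0.319 at early anagen. MMP12, the macrophage elastase, did not reach the filter, at 0.259 and 0.314 at mid anagen and 0.575 and 0.6205 at early anagen. MMP27 was above 0 only in the mid female library, at 0.0303.

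**Figure D2:**
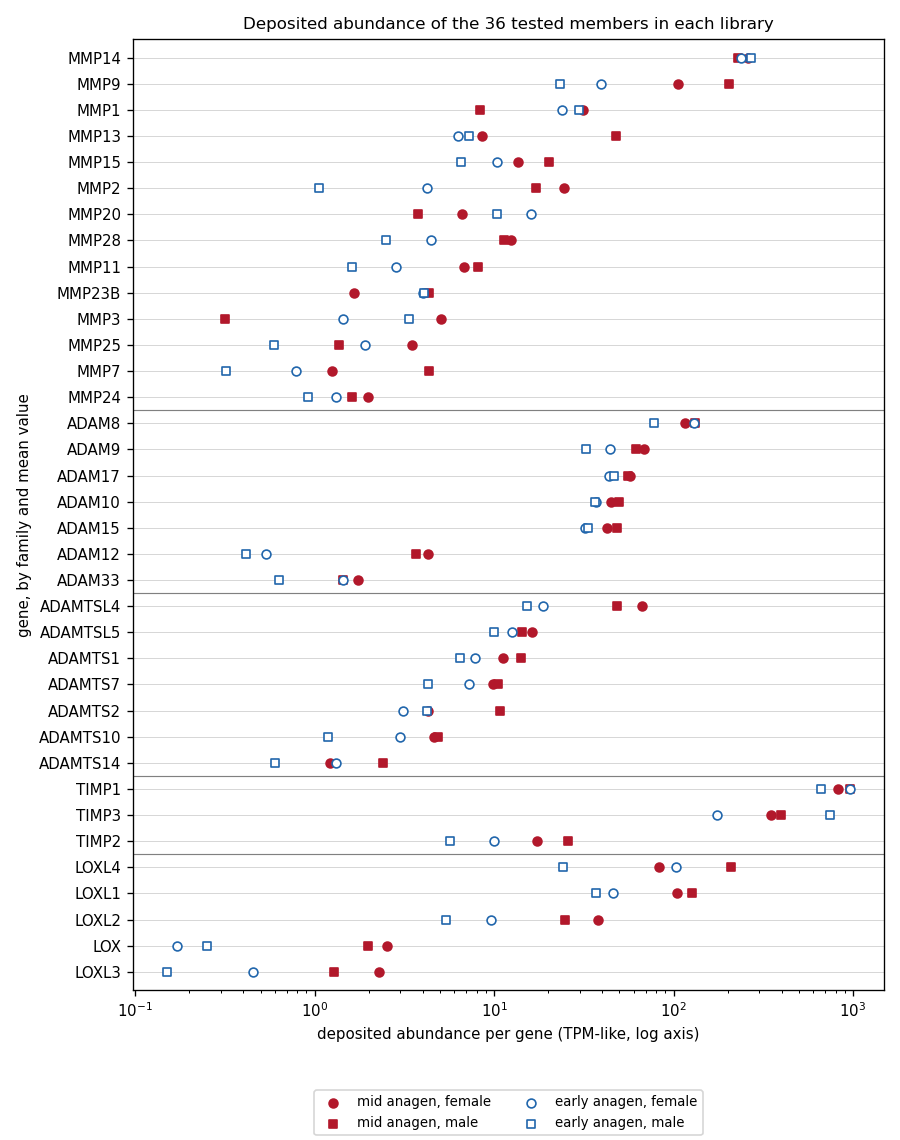
Deposited abundance (horizontal log axis, TPM-like) of the 36 tested members (rows, grouped by family) in each library, with mid anagen filled and early anagen open, and circles for female and squares for male. For MMP2, MMP9, ADAM12, ADAMTSL4, LOXL1 and LOXL2 both filled points lie to the right of both open points, and for MMP20 to the left.

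Among the ADAM proteases, ADAM12 (GeneID 102182472) had the largest difference. ADAM12, known from mesenchymal and growing tissues, was at 4.30 and 3.67 in the mid female and male and at 0.536 and 0.418 in early female and male libraries. The phases were far apart beside the difference between the sexes. Its log2 fold change of 1.75 (SE 0.20) had the smallest adjusted p of all members (limma adjusted p = 0.0551), and its mean at mid anagen was 8.35 times that at early anagen. It reached 1 in no early library, so its direction was fixed.

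The abundant ADAM sheddases differed less. ADAM9 (GeneID 102190933) was at 68.2 and 62.0 at mid anagen and at 44.1 and 32.7 at early anagen (log2 fold change 0.76, SE 0.19, limma adjusted p = 0.0916). ADAM10 (GeneID 102172903), which makes the first ligand-induced cut of Notch receptors, was at 44.7 and 49.9 at mid anagen and at 37.1 and 36.6 at early anagen. ADAM17 (GeneID 102188327), which releases TNF and several EGF receptor ligands, was at 57.4 and 55.4 at mid anagen and at 43.6 and 46.5 at early anagen. ADAM15 (GeneID 102178408) was at 42.8 and 48.4 at mid anagen and at 32.1 and 33.4 at early anagen. In these 4 genes the phases did not overlap, but the log2 fold changes of ADAM10, ADAM17 and ADAM15 were only 0.35, 0.32 and 0.46, with SEs of 0.14, 0.14 and 0.15. After rescaling to a common total, which shifts the median of all genes by 0.31, they were 0.68, 0.65 and 0.80.

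ADAM8 (GeneID 106503654), a sheddase of immune and epithelial cells, was the most abundant ADAM. It was at 117 and 132 in the mid female and male and at 131 and 77.5 in early female and male libraries, so that the early male library alone stood low. Its log2 fold change of 0.30 (SE 0.28) became -0.08 without that library. ADAM33 was at 1.76 and 1.45 at mid anagen and at 1.44 and 0.632 at early anagen. The ADAMs without protease activity were near 0. ADAM7, ADAM18, ADAM23 and ADAM29 were at 0 in every library and ADAM22 reached 0.00649, while ADAM11 was at 0.562 and 0.714 at mid anagen and 0.471 and 0.440 at early anagen.

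In the ADAMTS family the highest level belonged to a protein without a protease domain. ADAMTSL4 (GeneID 102186074), which binds fibrillin microfibrils, was at 67.1 and 48.5 in the mid female and male and at 18.8 and 15.3 in early female and male libraries. Both mid libraries stood far above both early ones, and the log2 fold change was 1.69 (SE 0.21, limma adjusted p = 0.0564). It was the only one of 24 members to pass when genes were required to reach 5 in at least 2 libraries, beside 0.557% of all genes tested so. ADAMTSL5 (GeneID 102177979), named by symbol but without a description in the files, was at 16.3 and 14.2 at mid anagen and at 12.6 and 9.97 at early anagen (log2 fold change 0.41, SE 0.18).

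The ADAMTS proteases were less abundant than these. ADAMTS1 (GeneID 102172386), which cuts the proteoglycans versican and aggrecan, was at 11.2 and 14.1 at mid anagen and at 7.84 and 6.43 at early anagen (log2 fold change 0.75, SE 0.18, limma adjusted p = 0.0896). ADAMTS7 (GeneID 102186909), a protease of cartilage oligomeric matrix protein, was at 9.92 and 10.5 at mid anagen and at 7.27 and 4.27 at early anagen. ADAMTS10 (GeneID 102175388), a fibrillin-binding member, was at 4.61 and 4.85 at mid anagen and at 3.00 and 1.19 at early anagen. In ADAMTS7 and ADAMTS10 the mid libraries stood together. The early male library was the lowest in ADAMTS1, ADAMTS7 and ADAMTS10. The procollagen N-proteinase ADAMTS2, which removes the amino-terminal propeptide of fibrillar procollagens, was at 4.28 and 10.8 at mid anagen and at 3.12 and 4.22 at early anagen. The phases almost touched in ADAMTS2, and in ADAMTS14, a second such enzyme, they overlapped, with 1.22 and 2.39 at mid anagen and 1.32 and 0.604 at early anagen.

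The remaining 17 ADAMTS genes did not reach the filter, but many were ordered by phase. Of the 29 members above 0 and below the filter, 17 had both mid libraries above both early ones (58.6%, beside 26.4% of all genes below the filter and above 0). Another 2, MMP12 and ADAMTS13, had the opposite order (6.9%, beside 13.2%). Over tested and untested members together, 42 of the 65 above 0 had the mid libraries higher (64.6%, beside 30% of all genes above 0) and 3 lower (beside 25.9%). Of the 17 untested ones, 12 were ADAMTS, 3 ADAM and 2 MMP genes. ADAMTS16 was at 0.254 and 0.253 at mid anagen and at 0.00897 and 0.00822 at early anagen. ADAMTS3, a procollagen N-proteinase, was at 0.406 and 0.401 at mid anagen and at 0.0772 and 0.0707 at early anagen. ADAMTSL3 was at 0.664 and 0.881 at mid anagen and at 0.1003 and 0.0749 at early anagen. The mid libraries nearly coincided in ADAMTS16 and ADAMTS3, and the phases were far apart in all 3. Only ADAM19, ADAMTS4 and ADAMTS12 reached 1 in a library, and the highest value among the 29 was 1.52. Such values can rest on few reads, and since the depth is unknown no counting error can be given for them.

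**Figure D3:**
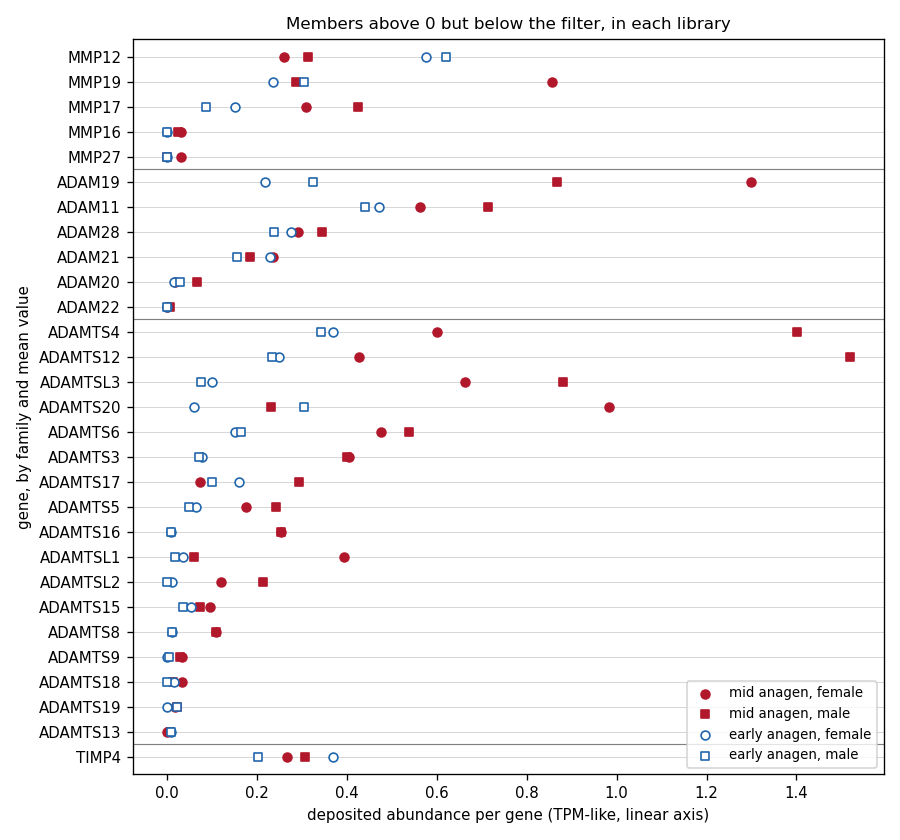
Deposited abundance (horizontal linear axis, TPM-like) of the 29 members above 0 that did not reach the filter (rows, grouped by family) in each library, with mid anagen filled and early anagen open, and circles for female and squares for male. Filled points lie to the right of the open points in 17 rows, 12 of them ADAMTS genes, and to the left in MMP12 and ADAMTS13.

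Of the inhibitors, only TIMP2 (GeneID 102178107) separated the phases. It was at 17.3 and 25.8 in the mid female and male and at 9.98 and 5.69 in early female and male libraries. The log2 fold change was 1.37 (SE 0.30, limma adjusted p = 0.0834). TIMP2 is both an inhibitor and, with MMP14, part of the complex that activates MMP2. The level of TIMP2 divided by that of MMP14 was 0.0663 and 0.112 at mid anagen and 0.0421 and 0.0211 at early anagen, and MMP2 divided by MMP14 was 0.0935 and 0.0742 at mid anagen and 0.0179 and 0.00391 at early anagen.

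TIMP1 and TIMP3 made up nearly all TIMP expression, and neither separated the phases. TIMP1 (GeneID 100860924), a soluble inhibitor of most MMPs, was at 827 and 957 in the mid female and male and at 958 and 661 in early female and male libraries. TIMP3 (GeneID 102190027), which stays bound to the matrix and also blocks ADAM17, was at 348 and 397 at mid anagen and at 175 and 745 at early anagen. The early male library had the lowest TIMP1 and the highest TIMP3, and the early female library the reverse. TIMP3 divided by TIMP1 was thus 0.421 and 0.415 in the mid libraries and 0.183 and 1.13 in early female and male libraries. The log2 fold changes were 0.16 for TIMP1 (SE 0.27) and 0.04 for TIMP3 (SE 0.66). Without the early male library that of TIMP1 was -0.11, and without the early female library that of TIMP3 was -1.001, and without the mid male library it was -0.05. TIMP4 (GeneID 108633348) was below the filter, at 0.267 and 0.307 at mid anagen and 0.369 and 0.201 at early anagen.

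As deposited, the summed TIMP level was 1193 and 1380 in the mid female and male and 1143 and 1412 in early female and male libraries. On this scale it did not separate the phases. The summed MMP level did, with 486 and 563 at mid anagen and 355 and 362 at early anagen. Library totals were 933211 and 844960 at mid anagen and 1068429 and 1186966 at early anagen. Relative to these totals, both mid TIMP sums lay above both early ones, so the TIMP overlap depends on the scaling. MMP sum divided by TIMP sum was 0.408 and 0.408 at mid anagen and 0.311 and 0.256 at early anagen. TIMP1 divided by MMP9, its best-known partner, was 7.79 and 4.70 at mid anagen and 24.1 and 28.5 at early anagen. These ratios are of RNA levels within a library and carry no test.

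All lysyl oxidases passed the filter, and 4 of the 5 had both mid libraries above both early ones, beside 31.5% of all tested genes. LOXL1 (GeneID 102176563), which acts on elastin, was at 105 and 127 at mid anagen and at 45.8 and 37.1 at early anagen (log2 fold change 1.47, SE 0.19, limma adjusted p = 0.0601). LOXL2 (GeneID 102177338), which cross-links collagen IV among other substrates, was at 38.0 and 24.9 at mid anagen and at 9.58 and 5.38 at early anagen (log2 fold change 1.95, SE 0.31, limma adjusted p = 0.0711). Their phases were well apart, and the male library of each phase was the lower one for LOXL2. LOX itself (GeneID 102169472) was at 2.55 and 1.98 at mid anagen and at 0.171 and 0.253 at early anagen (log2 fold change 1.42, SE 0.22, limma adjusted p = 0.07). LOXL3 (GeneID 102170055) was at 2.28 and 1.28 at mid anagen and at 0.452 and 0.151 at early anagen (log2 fold change 1.08, SE 0.28). LOX and LOXL3 reached 1 only in the mid libraries, so the filter fixed their direction.

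LOXL4 (GeneID 102174272) was the lysyl oxidase whose phases overlapped. It was at 82.7 and 209 in the mid female and male and at 103 and 24.4 in early female and male libraries. The highest and the lowest library were thus both male. LOXL4 divided by LOXL1 was 0.787 and 1.64 at mid anagen and 2.25 and 0.657 at early anagen. The summed level of the 5 lysyl oxidases was 231 and 365 at mid anagen and 159 and 67.3 at early anagen. Of it, LOXL1 and LOXL4 together took the greater part in every library, and LOX at most 1.104%.

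**Figure D4:**
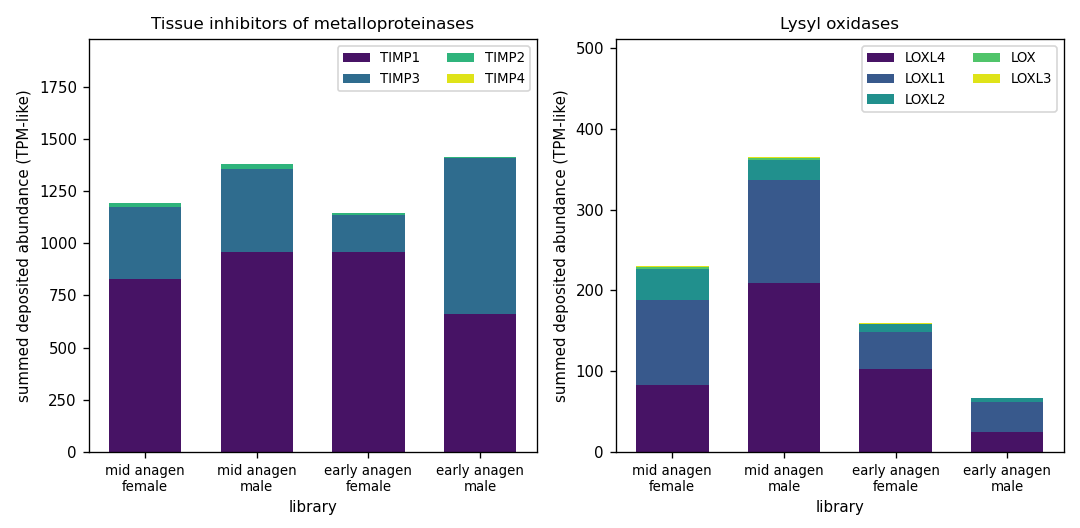
Summed deposited abundance (vertical axis, TPM-like) of the TIMP genes on the left and the lysyl oxidases on the right in each library (mid anagen female and male, then early anagen female and male), with a colour for each gene. As deposited, TIMP totals of 1193 and 1380 at mid anagen and 1143 and 1412 at early anagen overlap. Lysyl oxidase totals of 231 and 365 lie above 159 and 67.3.

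The families differed in how evenly their members were ordered by phase. The median log2 fold change was 1.42 over 5 lysyl oxidases, 0.77 over 14 MMPs, 0.76 over 7 ADAMTS genes, 0.38 over 7 ADAMs and 0.16 over 3 TIMPs that were tested. Members with both mid libraries above both early ones were 4 of 5 lysyl oxidases, 8 of 14 MMPs, 6 of 7 ADAMTS genes, 6 of 7 ADAMs and 1 of 3 TIMPs. The filter fixed the direction of LOX and LOXL3, and the median of the lysyl oxidases is the value of LOX itself. Without both genes the median was 1.47 and the count 2 of 3. After rescaling to a common total these medians were 1.70, 1.02, 1.06, 0.68 and 0.50. Without the early male library the TIMP median was 1.01, and without the early female library the ADAM median was 0.67. No family was tested against another.

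The matrix genes differed more between the phases in the male libraries than in the female ones. Of the 25 members with higher values in both mid libraries, 20 had the greater log2 difference in the male pair. The median over the 36 members was 1.05 in the male pair and 0.40 in the female pair, beside 0.01 and 0.02 over all tested genes. Within early anagen the male library was the lower one in 26 of the 36 members. The shares of all tested genes for this count and for the 20 of 25 were not taken. Neither count can thus be called particular to the members. Of the 36 members, 26 were higher at mid anagen in both sexes (72.2%, beside 39.3% of all tested genes) and 1 was lower in both (beside 37.1%). The members higher in both sexes include ADAM12, LOX, LOXL3 and MMP7, whose direction the filter fixed. Members of opposite direction in the sexes numbered 9 (25% of those tested, beside 23.5% of all tested genes). They were MMP1, MMP3, MMP14, MMP23B, ADAM8, ADAMTS14, TIMP1, TIMP3 and LOXL4. With 1 library per sex and phase, the difference between the sexes in the phase effect was not tested.

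**Figure D5:**
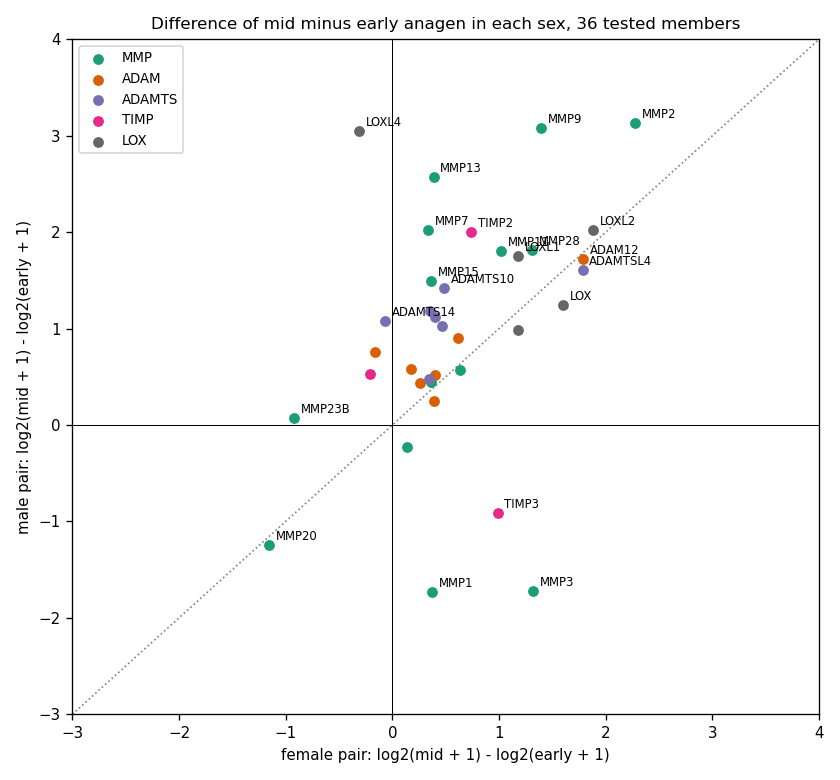
Difference of mid minus early anagen on the log2(value + 1) scale in the female pair (horizontal axis) against the male pair (vertical axis) for the 36 tested members, coloured by family, with a dotted line where both pairs are equal. Most points lie above the line, MMP20 is negative in both pairs, and LOXL4, MMP1, MMP3 and TIMP3 differ in sign.

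For sex, the male libraries were set against the female ones with phase as a second term. With limma, 0 members passed at 0.05, beside 0.144% of all tested genes, and 8 had an unadjusted p under 0.05 (22.2%, beside 11% of all tested genes). They were MMP2, MMP13, MMP20, MMP25, ADAMTS2, ADAMTSL4, LOXL2 and TIMP3. MMP25, a membrane-type MMP held by a lipid anchor, was at 3.50 and 1.38 in the mid female and male and at 1.90 and 0.595 in early female and male libraries, thus lower in the male library of both phases. With libraries rescaled to a common total 4 members passed, beside 3.17% of all tested genes. MMP13 and TIMP3 were higher and MMP2 and MMP25 lower in the male libraries, beside 1.32% and 1.85% of all tested genes. For MMP13 and TIMP3 the difference lay mostly in 1 phase. As deposited, male divided by female was 5.62 at mid and 1.15 at early anagen for MMP13, and 1.14 and 4.25 for TIMP3.

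Partners of these enzymes were described from lists chosen with earlier results of these data known. Of 16 regulators, among them proprotein convertases and the tetraspanins and iRhoms that carry ADAM10 and ADAM17, 11 were tested. Of the 11, 1 passed as higher, beside 0.224% of all tested genes, and 10 did not pass. The median log2 fold change was 0.21, beside 0.01 for all tested genes. The one that rose was TSPAN15, a tetraspanin that partners ADAM10 and steers it toward cadherins. It was at 8.60 and 8.33 in the mid female and male and at 1.56 and 1.32 in early female and male libraries (log2 fold change 1.96, SE 0.17, limma adjusted p = 0.0323). Leaving out either early library, or testing with no filter, left 0 genes called, TSPAN15 included. The MMP inducer BSG was at 590 and 606 at mid anagen and 567 and 720 at early anagen, the convertase FURIN at 74.1 and 95.9 and at 69.0 and 64.7, and TSPAN17 at 70.1 and 66.9 and at 55.8 and 56.5. RECK, a membrane inhibitor of MMPs, was below the filter, at 0.929 and 0.661 at mid anagen and 0.200 and 0.136 at early anagen.

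Of 27 ADAM10 and ADAM17 substrates, 25 were tested, and CX3CL1 alone passed as higher, beside 0.224% of all tested genes. It was at 14.2 and 13.0 at mid anagen and 2.21 and 1.35 at early anagen (log2 fold change 2.41, limma adjusted p = 0.0323). The other 24 did not pass, and the median log2 fold change of the list was 0.26. CD44 was at 517 and 516 at mid anagen and 453 and 476 at early anagen, SDC1 at 358 and 384 and at 325 and 335, and APP at 339 and 341 and at 207 and 201.

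None of the tested genes passed in the other lists, namely 9 of plasminogen activation, 12 other matrix proteases and 18 of procollagen processing and hydroxylation. With limma 3, 3 and 4 of them had an unadjusted p under 0.05, beside 27.9% of all tested genes. The median log2 fold changes were 0.24 for the other matrix proteases and 0.21 for procollagen processing. For plasminogen activation it was -0.21, and 0.13 with libraries at a common total. In plasminogen activation ANXA2 was at 2939 and 3892 in the mid female and male and 4413 and 6105 in early female and male libraries. S100A10 was at 1574 and 1619 at mid anagen and 2122 and 3189 at early anagen, and PLG, plasminogen, was at 0. Of the other proteases, the lysosomal CTSD was at 723 and 1238 at mid anagen and 878 and 798 at early anagen, the secreted serine protease HTRA1 at 753 and 725 and at 584 and 471, and CTSB at 695 and 771 and at 538 and 483. BMP1, the protease that removes the carboxy-terminal propeptide of procollagen and also processes LOX, was at 55.5 and 65.1 at mid anagen and 41.8 and 55.3 at early anagen. In procollagen processing PPIB was at 745 and 442 at mid anagen and 584 and 699.9 at early anagen, P4HB at 338 and 397 and at 407 and 544, and the collagen chaperone SERPINH1 at 71.1 and 73.8 and at 52.2 and 72.0.

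Most markers of fibroblasts moved with phase beside the matrix genes. Of 25 fibroblast and dermal papilla markers, 17 were tested. COL5A1 and FBN1 passed as higher, beside 0.224% of all tested genes, and 15 did not pass. Of the 17, 11 reached 1 only in mid libraries, FBN1 among them, so the filter fixed their direction and part of the median log2 fold change of 2.62. In 21 of the 25 both mid libraries were above both early ones, beside 30% of all genes above 0. S100A4, the most abundant, had the opposite order, at 793 and 720 at mid anagen and 870 and 915 at early anagen. THY1 overlapped, at 16.4 and 28.8 at mid anagen and 39.4 and 23.0 at early anagen. SOX2 and CORIN, below the filter, overlapped as well. The summed level of the list was 1150 to 1277 at mid anagen and 939 to 1027 at early anagen, but S100A4, which is not specific to fibroblasts, took 62.1% to 62.6% of it at mid anagen and 89.0% to 92.7% at early anagen. Without S100A4 and VIM the sum was 297 and 132 in the mid female and male and 48.0 and 34.0 in early female and male libraries. The collagen COL1A1 was at 58.6 and 19.8 at mid anagen and 0.179 and 0.987 at early anagen, and VIM, vimentin, at 187 and 298 and at 20.6 and 78.5. DCN was at 21.0 and 3.38 at mid anagen and at 0 and 0.0774 in early female and male libraries, and PDGFRA, below the filter, at 0.810 and 0.353 at mid anagen and 0.0907 and 0.0713 at early anagen. Of the markers 21 of 25 were higher in the mid female than in the mid male library. Of the 25 matrix members with higher values in both mid libraries, 12 were higher and 13 lower in the mid female than in the mid male library, with MMP9, LOXL1 and TIMP2 lower and MMP2, LOXL2 and ADAM12 higher. The part of fibroblast RNA in these differences was not tested. No share of all tested genes was taken for the 21 of 25 or for the 12 and 13. Neither split can thus be called particular to its genes. Both rest on deposited values, and at mid anagen the female library had the larger total (933211, beside 844960 for the male).

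Of the markers of other cell types, 2 of 9 endothelial, 3 of 9 immune, 2 of 8 melanocyte, 6 of 9 smooth muscle and pericyte and 6 of 8 sebocyte and adipocyte genes reached the filter, and none of these passed the test. The summed endothelial list was 11.3 to 11.8 at mid anagen and 4.27 to 4.55 at early anagen with CDH5 at 0. Most of it was EGFL7 and ERG, and ERG reached 1 only in mid libraries. Of the 8 endothelial markers above 0, 5 had both mid libraries above both early ones, beside 30% of all genes above 0. PECAM1 had the opposite order, at 0.0664 and 0.0777 at mid anagen and 0.313 and 0.278 at early anagen. The immune list was 13.4 to 19.5 at mid anagen and 8.07 to 9.78 at early anagen, with PTPRC and TYROBP at 0. Its only tested gene without overlap was CD14, at 12.6 and 8.52 at mid anagen and 3.28 and 2.49 at early anagen. The phases overlapped in CD68 and CD79A. The melanocyte list was 6.62 to 7.34 at mid anagen and 5.80 to 7.08 at early anagen, with DCT at 0. The smooth muscle and pericyte list was 288 to 596 and 246 to 505, and the sebocyte and adipocyte list 619 to 744 and 811 to 968. The list of follicle stem cell and basal epithelial markers summed to 19764 to 21002 at mid anagen and 39517 to 44326 at early anagen, mostly KRT14 and KRT5. Of its 14 tested genes LHX2 alone passed, as higher (limma adjusted p = 0.0431), beside 0.224% of all tested genes. In 8 of the 14 both mid libraries lay above both early ones and in 3 below, beside 31.5% and 30.9% of all tested genes. The part of these cell types in the differences of the matrix genes was not tested.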

How the data were processed

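RNA from 4 libraries was measured, 2 per phase. What the authors deposited is a signal for each gene, an abundance normalised for length, rather than reads. Per the submitters' processing notes kallisto 0.46.1 and sleuth 0.30.0 were used. Neither genome build nor annotation is given in the sources used here. Library totals differ, so the values are not plain TPM. No pair of libraries shared equal values above 0. Without read depth no counting intervals were computed.

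The log2(value + 1) scale was used throughout, with limma 3.58.1 (R 4.3.3) and an intensity trend. Genes reaching 1 in 2 or more libraries numbered 12486, and p-values were adjusted over all of them by the Benjamini-Hochberg method at 0.05. Mid anagen was compared with early anagen with phase as the only term, male with female with phase and sex as terms. The fit was tested on simulated data. Members and lists were chosen with earlier results of these data known. Named are all TIMP and lysyl oxidase genes and, in each other family, the 5 with the smallest p and the 4 with the highest mean. In each list other than those of cell type markers, those called and up to 3 with the highest mean are named. One list gene that this takes is not reported here. Others named were chosen after their values were seen. All 70 members had the same symbol in RefSeq (ARS1.2), which served for names and the order of neighbouring genes, and no coordinates or sequences are printed. A further 5 genes without a symbol, described as ADAM proteins, stayed at or below 0.0789 and were left out. Alternatives were pseudocounts of 0.1 and 5, no filter, a filter of 5, a common total, no trend, leaving out each library and a replicate block.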

Additional observations from a re-analysis of the deposited data

Results flagged for a closer look

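In 9 tested members the difference of mid minus early anagen had opposite signs in the female and the male pair, each pair being 1 library per phase. The difference between the sexes was not tested. The male pair minus the female pair, on the log2(value + 1) scale, was 3.37 for LOXL4, -3.05 for MMP3, -2.10 for MMP1, -1.90 for TIMP3, 1.15 for ADAMTS14, 0.996 for MMP23B, 0.925 for ADAM8, 0.744 for TIMP1 and -0.369 for MMP14. MMP23B was at 1.66 and 4.35 in the mid female and male and at 4.03 and 4.08 in early female and male libraries, so that the mid female library alone stood low. The share of such genes among the members, 25%, was near that of all tested genes, 23.5%.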

How the results depend on the processing

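The number of genes called between the phases was 38, and 18 with a pseudocount of 0.1, 0 with no filter (3843 at an unadjusted p under 0.05), 648 with a common total and 0 to 733 when 1 library was left out. The number of members called was 0, and 1 with a filter of 5, 1 with no trend, 11 with a common total and 0 to 14 when 1 library was left out. The replicate number, which is also the sex, pairs no animals by the labels. With it as a replicate block 1782 genes (14.3%) and 14 members (38.9%) were called, 917 (7.34%) and 13 of them higher at mid anagen, and the members include all 11 called with a common total. Deviations of same-numbered libraries from their phase means correlated at 0.292 across 12486 genes and at -0.166 across the 36 members. Without the filter, 42 members were higher and 3 lower in both mid libraries than in both early ones, and with 1 library left out 26 to 30 and 2 to 4 were. A filter on the mean, chosen after seeing the data, gave the same 25, and requiring a value of 1 in each phase, also chosen so, gave 21. The MMP median log2 fold change was 0.29 with no filter, 0.35 with a pseudocount of 5, 1.41 with a filter of 5 and 0.46 to 1.13 with 1 library left out, and the lysyl oxidase median 2.08 with a pseudocount of 0.1. With a common total the ADAM median was 0.68 and the TIMP median 0.50. With 1 library left out they ranged from 0.36 to 0.67 and from 0.056 to 1.01. Signs turned for MMP14 with a common total (0.30). With 1 library left out they turned for MMP14 (-0.14 to 0.050), MMP1 (-1.57 to 0.21), ADAM8 (-0.076 to 0.67), TIMP1 (-0.11 to 0.43) and TIMP3 (-1.001 to 1.08). The other fits of the 27 named and tested members kept their direction, and 46 passed the threshold where the fit with phase alone did not. Between the sexes 18 genes were called, and 46 and 48 with pseudocounts of 0.1 and 5, 0 with no filter (1504 at an unadjusted p under 0.05), 101 with a filter of 5, 396 with a common total and 9 with no trend. Of members 4 were called with a common total and 0 otherwise. Leaving out a library leaves that fit no residual degrees of freedom. The cause of these changes was not tested. Depth limits what can be said of the 29 members below the filter.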
